A study of Homo sapiens with 6 samples.

Results

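Complement is a protein cascade of blood and tissue fluid that marks cells for removal or punctures them, and cells carry regulators that stop it on their own surface. C1r and C1s are the serine proteases of the first complex of the classical pathway, C3 is the central component on which the pathways converge, and factor B is the protease of the alternative pathway that keeps C3 cleavage going. The regulators act at separate steps: CD55 takes C3 convertases apart, CD46 and factor I (CFI) together cleave deposited C3b and C4b, CD59 blocks the membrane attack complex, and C1 inhibitor (SERPING1) inactivates C1r and C1s. Lung epithelial cells make several of these components themselves.

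The 9 genes CD55, CD46, CD59, C3, CFB, CFI, C1R, C1S and SERPING1 were taken from 23180 gene symbols measured by RNA-Seq in A549 cells, an established human lung adenocarcinoma cell line labelled as wild type and used at passage 11. They were chosen as complement made by lung epithelium and its membrane or soluble regulators, and each gene was read from its deposited transcript with the largest count over the 6 samples. The comparison asks which genes change upon knock-down of KMT9α, the catalytic subunit of a histone H4 lysine 12 methyltransferase, which is encoded by N6AMT1. Cells received a control siRNA (siControl, 3 samples) or an siRNA against KMT9α (siKMT9α, 3 samples) at 65 nM and were harvested 3 days later, and a single siRNA, siKMT9α#1, was used. What this siRNA does through KMT9α and what it does otherwise cannot be told apart here. The labels call the samples biological replicates and do not say how the cultures were separated, so p-values measure the spread between these samples.

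Total counts over the chosen transcripts were 15551778 to 18568639.5 for siControl and 13740097 to 19832395.5 for siKMT9α. N6AMT1 stood at 10.22, 10.84 and 11.46 CPM (counts scaled to library size with TMM factors) with siControl and at 2.87, 3.22 and 3.35 CPM with siKMT9α, a log2 fold change of -1.77 (SE 0.12, adjusted p = 1.43e-10). Among the markers for the cell type, the simple epithelial keratin KRT7 had mean levels of 1260 CPM in siControl and 1269 CPM in siKMT9α. In the same order, KRT8 had 1281 and 528, KRT18 2041 and 1210, and KRT19 57.6 and 35.9 CPM. EPCAM, with 3.86 and 0.593 CPM, fell, and CDH1, with 3.39 and 8.62 CPM, rose. Most markers of other cells were scarce: CD3E and COL1A2 had no count, and PTPRC, PECAM1, VWF, ALB and APOA1 had at most 2 counts in any sample. The markers of other cells with enough counts to be tested were CD68, with 80.6 CPM in siControl and 27.9 CPM in siKMT9α, CD14, with 3.55 and 1.92 CPM, and COL1A1, with 4.27 and 2.80 CPM, and all 3 fell. Summed levels were 4402 to 4886 CPM in siControl and 2943 to 3130 CPM in siKMT9α for the 6 epithelial markers, and 81.5 to 88.3 and 29.0 to 30.6 CPM for the 6 leukocyte markers. The part of these differences in the results was not tested.

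Upon knock-down of KMT9α, 4 of the 9 complement genes rose and 3 fell. C3, CD55, CD59 and C1S rose 2.16- to 2.56-fold, and their 3 siKMT9α samples lay above the 3 siControl samples in each case. Such a separation of the groups, in either direction, was seen for 77.0% of all genes tested. C1R, CD46 and CFI fell, C1R and CD46 by a log2 fold change of -0.23 and -0.21 and the sparsely counted CFI by more. CFB was tested and not called, and SERPING1 had too few counts to be tested. An adjusted p under 0.05 was reached in the higher direction by 37.1% and in the lower direction by 38.5% of the 13877 genes tested, so a call alone was common here. The study's stricter threshold (p under 1e-08 and an absolute log2 fold change over 0.26) was passed by the 4 genes that rose and by 0 of those that fell, against 13.5% and 10.7% of all genes in these directions. DESeq2, the likelihood-ratio test and the exact test also put 4 of the 9 past it. Of the 13877 genes, 3357 passed it here, but 5962 with the likelihood-ratio test, 5924 with the exact test and 4773 with DESeq2. The background share beside these 4 genes thus depended on the test. The 3 genes that fell all had an unadjusted p under 0.05 with edgeR. In these bulk samples, fewer cells that express a gene and less RNA per cell cannot be told apart.

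**Figure D1:**
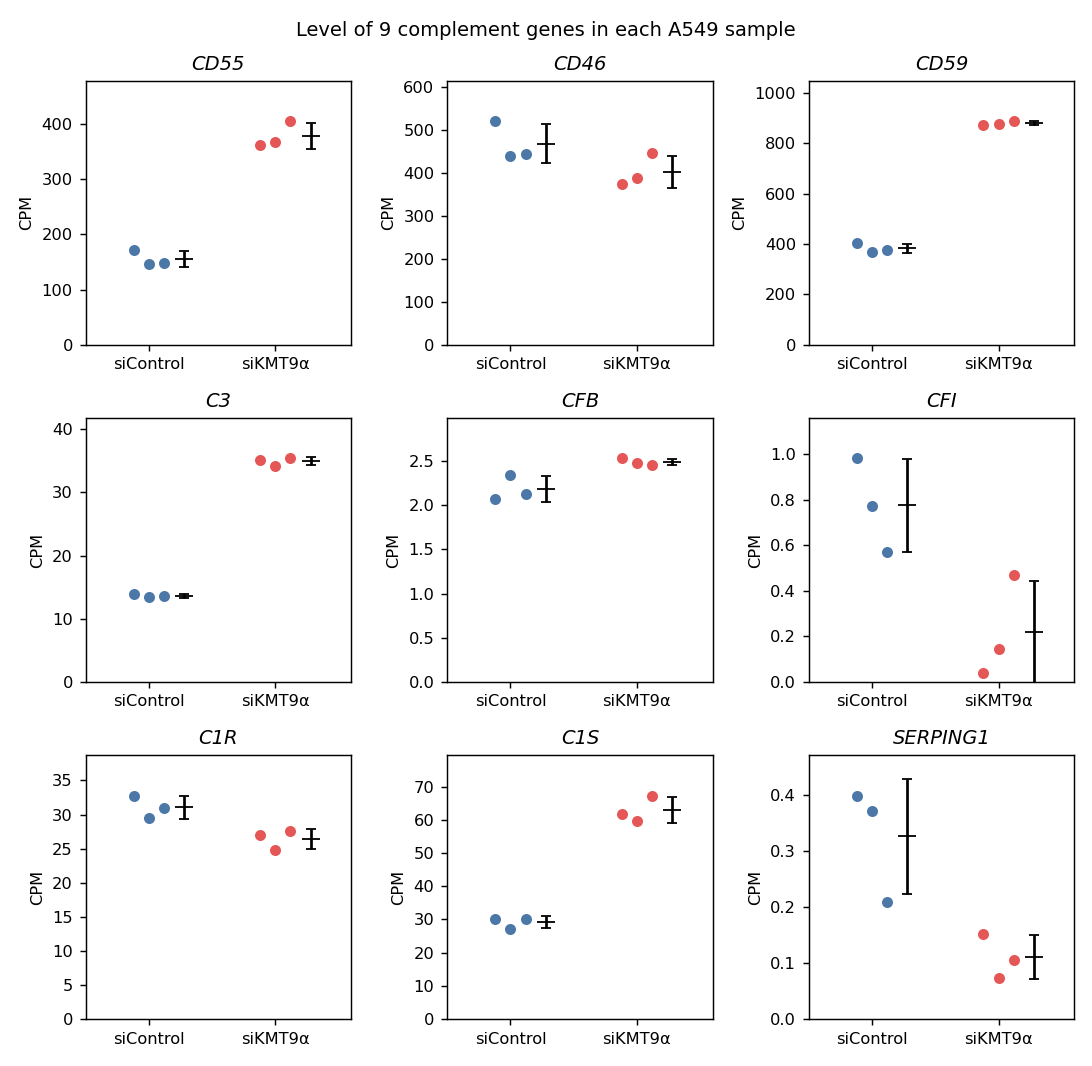
Level of each complement gene in CPM (linear axis from 0) in the 3 siControl and 3 siKMT9α samples; points are samples, and the black bar is the mean with the SD. CD55, CD59, C3 and C1S were higher in every siKMT9α sample, whereas the 2 groups of CD46 overlapped.

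CD55, also called decay-accelerating factor, is held in the outer membrane leaflet by a glycosylphosphatidylinositol (GPI) anchor. Its level was 172, 146 and 149 CPM in the siControl samples and 362, 367 and 405 CPM in the siKMT9α samples. The groups were far apart compared with their spread, 156 ± 14.4 against 378 ± 23.8 CPM (SD, n = 3), and the log2 fold change was 1.28 (SE 0.06, adjusted p = 5.59e-13). The gene lies on chromosome 1 of hg19 from 207494817 to 207534311 on the plus strand. Each of its 2 deposited transcripts, whose counts were nearly the same, had a log2 fold change of 1.28.

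CD59, or protectin, is also GPI-anchored and binds C8 and C9 in the forming pore. It had 403, 366 and 377 CPM with siControl and 873, 878 and 888 CPM with siKMT9α. The 3 siKMT9α values lay close together and more than doubled the control mean of 382 CPM, with a log2 fold change of 1.20 (SE 0.05, adjusted p = 4.39e-14). All 8 deposited transcripts, whose counts were nearly the same, gave log2 fold changes of 1.20 to 1.21. The gene spans chromosome 11 from 33724556 to 33758025 on the minus strand of hg19, and most of its transcript is 3′ untranslated.

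CD59 was also the only gene of the 9 whose annotated 3′ untranslated region held ACATTCA, the 7 bases that pair with bases 2 to 8 of the siRNA strand antisense to N6AMT1. The site is shown because short matches of this kind are the usual off-target sites of an siRNA, with the match in capitals, at chr11:33728652-33728680 of GRCh37 on the minus strand and 3003 bases after the stop codon.
CD59 site: agtactgactgACATTCAttgtgatgagg
Among the genes tested with an annotated 3′ untranslated region, 11.9% held the same 7 bases. Of the other changed genes named in this text, C5, PIGA, PLA2G12A, EPCAM and IL6ST, which fell, held them. LIFR and FGB, which rose, held them too, and the part of these sites was not tested. For C1R, the region searched came from an annotated transcript of 1168 bases, against 2249 listed for the deposited one, and may differ from the latter's. CD59, which holds the match, was among the genes that rose, and the part of the site in its value was not tested.

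CD46, or membrane cofactor protein, spans the membrane with a peptide segment of its own and had the highest level per length of the 9 genes in siControl. It had 520, 438 and 443 CPM with siControl and 375, 387 and 445 CPM with siKMT9α. The groups overlapped, since siKMT9α replicate 3 lay above 2 of the siControl samples, and an exact permutation test gave p = 0.3. The quasi-likelihood test called a log2 fold change of -0.21 (SE 0.07, adjusted p = 0.00799), which shrank to -0.11 (adjusted p = 0.0853) without siControl replicate 1, the highest sample. Among the genes tested, CD46 and CD55 are nearest to each other on that side, 391072 bases apart in the regulator cluster of chromosome 1.

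The 8 deposited CD46 transcripts share their start and end (chromosome 1, 207925383 to 207968861, plus strand, hg19) and differ by whole exons, so the difference between the counts of 2 transcripts gives the counts of the exon that 1 of them lacks. One such exon, of 93 bases, decides how the protein ends inside the cell. When it is included, translation stops within it after 16 codons (the tail known as CYT-1). When it is skipped, the last exon is read for 23 codons to another stop (the tail known as CYT-2). Both endings are shown from the first base of the exon to the stop codon in capitals, since the counts differed between the groups at the exon that separates them. The first lies at chr1:207963598-207963649 and the second at chr1:207966864-207966936 of GRCh37 on the plus strand.
exon included, CYT-1 ending: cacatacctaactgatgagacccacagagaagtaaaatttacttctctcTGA
exon skipped, CYT-2 ending: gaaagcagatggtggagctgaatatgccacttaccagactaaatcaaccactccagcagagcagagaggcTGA

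The 93-base exon held 2.36%, 2.12% and 2.16% of the counts of transcript NM_002389 in the siControl samples and 0.797%, 0.849% and 1.00% in the siKMT9α samples. All siKMT9α samples were below all siControl samples, with means of 2.21% ± 0.13 and 0.882% ± 0.105 (SD, n = 3), a ratio of 0.398. These shares rest on 231, 150 and 184.5 counts with siControl and 39.5, 45 and 85 counts with siKMT9α. The exact permutation test gave p = 0.1, the smallest that 3 samples against 3 can give. If reads were spread evenly over the transcript, this exon would hold 2.70% of the counts. The other pairs of transcripts that differ by the same exon gave ratios of 0.401 and 0.367. They count largely the same reads and are not a separate measurement. This exon was singled out after its counts had been seen.

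Other CD46 exons gave different values in the same libraries. The 64-base exon, next upstream and encoding the end of the membrane segment, held 2.74% ± 0.24 with siControl and 2.67% ± 0.09 with siKMT9α, and the groups overlapped (exact permutation p = 0.8). The same was seen for the 42-base exon, which belongs to the serine, threonine and proline-rich stretch outside the cell, with 1.55% ± 0.10 and 1.52% ± 0.12 (exact permutation p = 0.9). A 45-base exon of that stretch had 0.708% ± 0.041 with siControl and 1.01% ± 0.07 with siKMT9α, without overlap (exact permutation p = 0.1), on 47.5 to 83.5 counts a sample. The second 45-base exon had at most 4.5 counts in any sample. The 64-base exon, at chr1:207958964-207959027, is shown as the exon beside the tail exon whose share overlapped between the groups.
64-base exon: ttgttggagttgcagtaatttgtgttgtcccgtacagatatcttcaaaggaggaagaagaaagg

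The same measure was taken for every gene, as the counts by which its chosen transcript exceeded each shorter deposited transcript of the same span. Of 2142 such pairs of transcripts with at least 10 counts of difference in every sample, the share was lower without overlap upon knock-down of KMT9α in 19.1% and higher without overlap in 9.57%. A ratio as low as that of the CD46 tail exon was seen in 14 pairs (0.654%), from 10 of 1440 genes. The median ratio over all pairs was 0.97. HOMER's counting options are not given in the sources used here, and how a read across a splice junction was assigned to an exon is therefore not known.

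**Figure D2:**
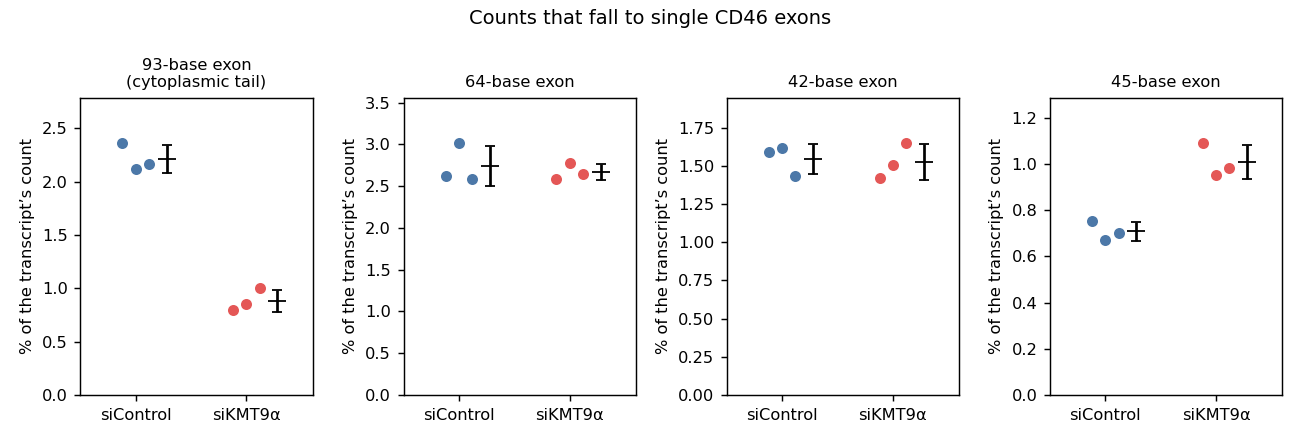
Share of the CD46 transcript's counts (in percent, linear axes from 0) that falls to each of 4 exons in the 3 siControl and 3 siKMT9α samples; points are samples and the black bar is the mean with the SD. The 93-base cytoplasmic tail exon had means of 2.21% and 0.882%, while the 64-base and 42-base exons overlapped between the groups.

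C3 is cleaved to the fragment C3b that coats targets and to the anaphylatoxin C3a. It stood at 13.9, 13.4 and 13.5 CPM with siControl and at 35.1, 34.2 and 35.4 CPM with siKMT9α. The spread within each group was small beside the distance between them, and the log2 fold change of 1.36 (SE 0.07, adjusted p = 1.29e-12) was the highest of the 9 genes. The gene lies on chromosome 19 of hg19 from 6677846 to 6720662 on the minus strand. Its nearest tested neighbours did not follow by the same size: GPR108 had a log2 fold change of 0.14 (adjusted p = 0.0449, a call lost under 10 of 17 alternatives) and CD70 one of -0.01 (adjusted p = 0.958), whose sign turned with RLE factors and which was called higher with offsets for GC content and length (0.26, adjusted p = 0.0468).

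CFB, which binds C3b to form the alternative pathway convertase, had 2.07, 2.35 and 2.13 CPM with siControl and 2.53, 2.48 and 2.46 CPM with siKMT9α. Every siKMT9α sample lay above every siControl sample, and for 77.0% of all genes tested the groups did not overlap, in either direction. The log2 fold change of 0.20 (SE 0.18) was not called (adjusted p = 0.33), on 33.5 to 47 counts a sample. CFB lies on chromosome 6 within the major histocompatibility complex, from 31913721 to 31919861 on the plus strand, 272 bases from C2 and 3 bases from NELFE. Its listed length of 2510.4 bases is not whole, as for 177 rows of which 140 are on chromosome 6. How reads shared with other copies of this region in the assembly were counted is not known, so its level is uncertain.

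CFI encodes the protease that cuts C3b and C4b when a cofactor such as CD46 is present. It had 18.5, 12.5 and 11 counts with siControl and 0.5, 2 and 9 counts with siKMT9α, or 0.98, 0.77 and 0.57 against 0.04, 0.15 and 0.47 CPM. The groups did not overlap, but siKMT9α replicate 3 was close to the lowest siControl sample. The log2 fold change of -1.63 (SE 0.51, adjusted p = 0.00721) became -3.22 without that sample, and without siControl replicate 1 the gene had too few counts to be tested. CFI passed the filter on low counts through its siControl samples, which made a lower value in siKMT9α likely among the genes kept. Summed over the samples of a group and scaled by depth, the ratio of siKMT9α to siControl was 0.337, with an exact 95% interval of 0.161 to 0.652 that covers counting error only.

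SERPING1, the inhibitor of C1r, C1s and the contact system proteases, had 7.5, 6 and 4 counts with siControl and 2, 1 and 2 counts with siKMT9α. All siKMT9α samples were at or under 3 counts, the limit that a count of 0 allows, and the gene did not pass the filter on low counts. The ratio of the summed and scaled counts was 0.327 (exact 95% interval 0.095 to 0.915, counting error only). When no filter was applied, its log2 fold change was -1.54 (SE 0.74, adjusted p = 0.0643). C1 inhibitor transcripts were thus close to the detection limit in either group.

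C1R and C1S encode partner proteases that assemble as a tetramer, and the genes are neighbours on chromosome 12, 9180 bases apart and on opposite strands. C1S (7167980 to 7178335, plus strand) had 30.2, 27.1 and 30.3 CPM with siControl and 61.9, 59.7 and 67.4 CPM with siKMT9α. The siKMT9α samples were all above the siControl samples, with a log2 fold change of 1.11 (SE 0.07, adjusted p = 9.56e-12). C1R (7187515 to 7245043, minus strand) had 32.8, 29.4 and 30.9 CPM with siControl and 27.0, 24.8 and 27.5 CPM with siKMT9α. Here the siKMT9α samples were all below, by a log2 fold change of -0.23 (SE 0.07, adjusted p = 0.00558), a call that was lost with offsets for GC content and length (log2 fold change -0.13, adjusted p = 0.0937).

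The ratio of C1R to C1S, each per kilobase of listed length, was 1.34, 1.35 and 1.27 in the siControl samples and 0.541, 0.514 and 0.506 in the siKMT9α samples. C1R was thus the more abundant transcript in every siControl sample and the less abundant in every siKMT9α sample, with mean ratios of 1.32 ± 0.05 and 0.52 ± 0.02 (SD, n = 3, exact permutation p = 0.1, the smallest possible). C1RL, the C1R-like protease gene on the far side of C1R, had a log2 fold change of -0.20 (adjusted p = 0.0393), and LPCAT3, a phospholipid acyltransferase gene on the far side of C1S, fell by 0.42 on the log2 scale (adjusted p = 2.21e-06). C1S was therefore the one gene of these 4 neighbours that rose. The call of C1RL was lost under 7 of 17 alternatives, RLE factors among them (adjusted p = 0.0509).

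**Figure D3:**
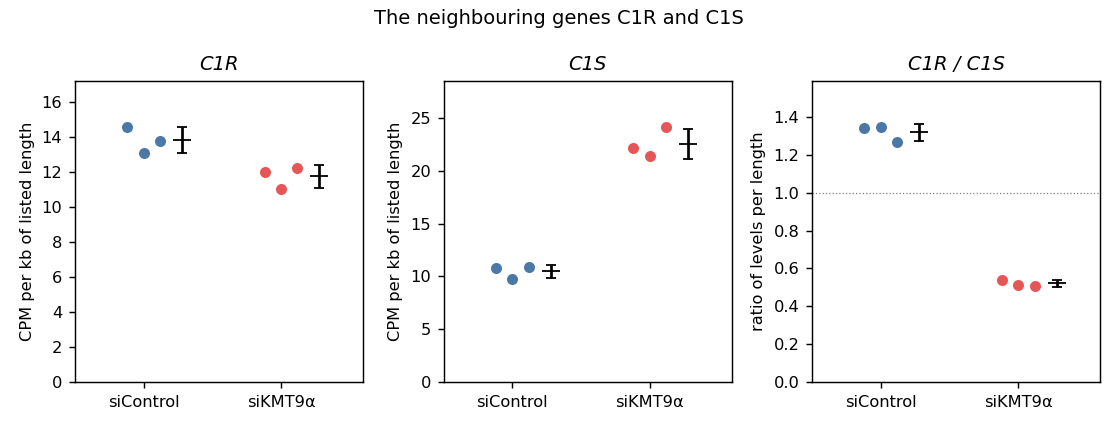
Levels of C1R and C1S in CPM per kilobase of listed length and their ratio (linear axes from 0) in each sample; points are samples, the black bar is the mean with the SD, and the dotted line marks a ratio of 1. The mean ratio was 1.32 in siControl and 0.52 in siKMT9α, and the samples did not overlap.

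The remaining nearest tested neighbours moved in either direction. KIAA1549L next to CD59 rose (log2 fold change 2.14, adjusted p = 2.17e-15), and FBXO3, 4465 bases from CD59 on its other side, fell (-0.60, adjusted p = 1.24e-05). PLXNA2 beyond CD46 rose (0.57, adjusted p = 0.000176, with 0.12 and no call after offsets for GC content and length), while C4BPA beyond CD55 had 0.32 (adjusted p = 0.264). Beside CFI, PLA2G12A fell (-1.31, adjusted p = 4.51e-10) and GAR1 had 0.06 (adjusted p = 0.285), whose sign turned when scaled by library size alone and which was called higher with offsets for GC content and length (0.25, adjusted p = 5.72e-05). Beside SERPING1, UBE2L6 fell (-0.85, adjusted p = 3.60e-09) and CLP1 rose (1.13, adjusted p = 6.12e-11). NELFE next to CFB fell (-0.62, adjusted p = 7.61e-09), and C2 on the other side had 0.43 (adjusted p = 0.315). No span of the 9 genes overlaps that of another gene in the table.

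Levels of different genes were compared as CPM per kilobase of listed length. With siControl the order was CD46 (139 ± 13.6), CD55 (56.1 ± 5.18), CD59 (49.2 ± 2.45), C1R (13.8 ± 0.743), C1S (10.5 ± 0.657), C3 (2.71 ± 0.056), CFB (0.870 ± 0.058), CFI (0.363 ± 0.096) and SERPING1 (0.167 ± 0.053), and the ranges of no adjacent pair overlapped. With siKMT9α it was CD55 (136 ± 8.57), CD46 (120 ± 11.1), CD59 (113 ± 0.955), C1S (22.6 ± 1.42), C1R (11.8 ± 0.654), C3 (6.96 ± 0.121), CFB (0.993 ± 0.015), CFI (0.102 ± 0.105) and SERPING1 (0.056 ± 0.020). The 3 membrane regulators, separated in siControl, now lay within overlapping ranges, CD55 with CD46 and CD46 with CD59, and CFI overlapped SERPING1. Within these 9 genes, CD46, CD55 and CD59 stood above the soluble components in either group.

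**Figure D4:**
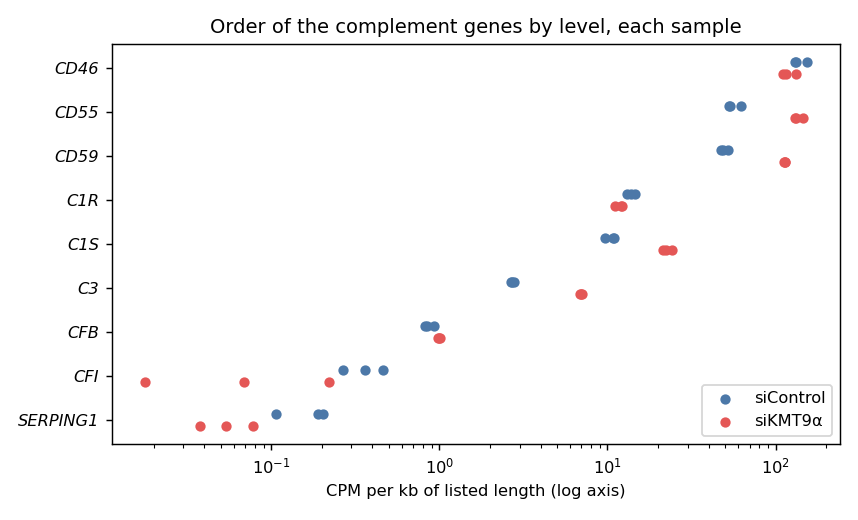
Level of each complement gene in CPM per kilobase of listed length on a log axis, with genes ordered by their siControl mean; each point is a sample. CD46, CD55 and CD59 lie between 47.2 and 154 in all samples, and SERPING1 lies under 0.21.

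Of 52 further complement genes, 20 had enough counts to be tested, and 18 had no count in any sample, which allows up to 3 counts, or 0.156 to 0.227 CPM, in each. The chains of C1q, C6, C9, MBL2 and the receptor CR1 were among these. Of the 20, 5 rose, 10 fell and 5 were not called, beside 37.1% and 38.5% of all genes tested, and the median log2 fold change was -0.23, against -0.01 for all genes tested. Of these, C5AR1 and VTN, both lower, passed the study's threshold.

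Among these genes VTN, or vitronectin, which keeps the attack complex from inserting into membranes, went from 40.6, 36.0 and 36.6 CPM to 9.86, 9.32 and 10.5 CPM (log2 fold change -1.93, SE 0.08). C5AR1, the receptor for the anaphylatoxin C5a, went from 7.06, 7.04 and 6.21 CPM to 2.04, 0.80 and 1.86 CPM (-2.07, SE 0.20). For both, the siKMT9α samples were all below the siControl samples. C5, from which C5a and the first piece of the attack complex derive, fell from a mean of 49.4 to 32.8 CPM (-0.59, adjusted p = 8.33e-06), a direction opposite to that of C3.

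At lower levels, COLEC11, a collectin of the lectin pathway (-1.52), ITGAX, a chain of complement receptor 4 (-1.35), and CFHR3, a soluble complement protein (-1.32), also fell, the last with counts that may be shared with near-identical genes. COLEC11, CFHR3 and 2 further genes of the 10 that fell had under 10 counts in a siKMT9α sample, and such genes passed the filter on low counts through siControl, which favoured a lower value in siKMT9α. With at least 10 counts required in every sample, 6 fell and 2 rose. C5AR2, the second C5a receptor, had 33.5 counts over the siControl samples and 0.5 over the siKMT9α samples, at least 9.47-fold lower when 3 counts over the group are taken as the limit. Among those that rose were COLEC12, a scavenger receptor collectin (1.23), C1QBP, a mitochondrial protein that binds C1q (0.42), and CFD, the protease that activates factor B (0.28, adjusted p = 0.0387, a call lost under 6 of 17 alternatives, library size alone among them). Of the 5 that rose, 3, COLEC12 among them, had under 10 counts in a siControl sample. These passed the filter through siKMT9α, which favoured a higher value there. The paralogs C4A and C4B were listed with identical counts of 4 to 9 a sample and could not be told apart.

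**Figure D5:**
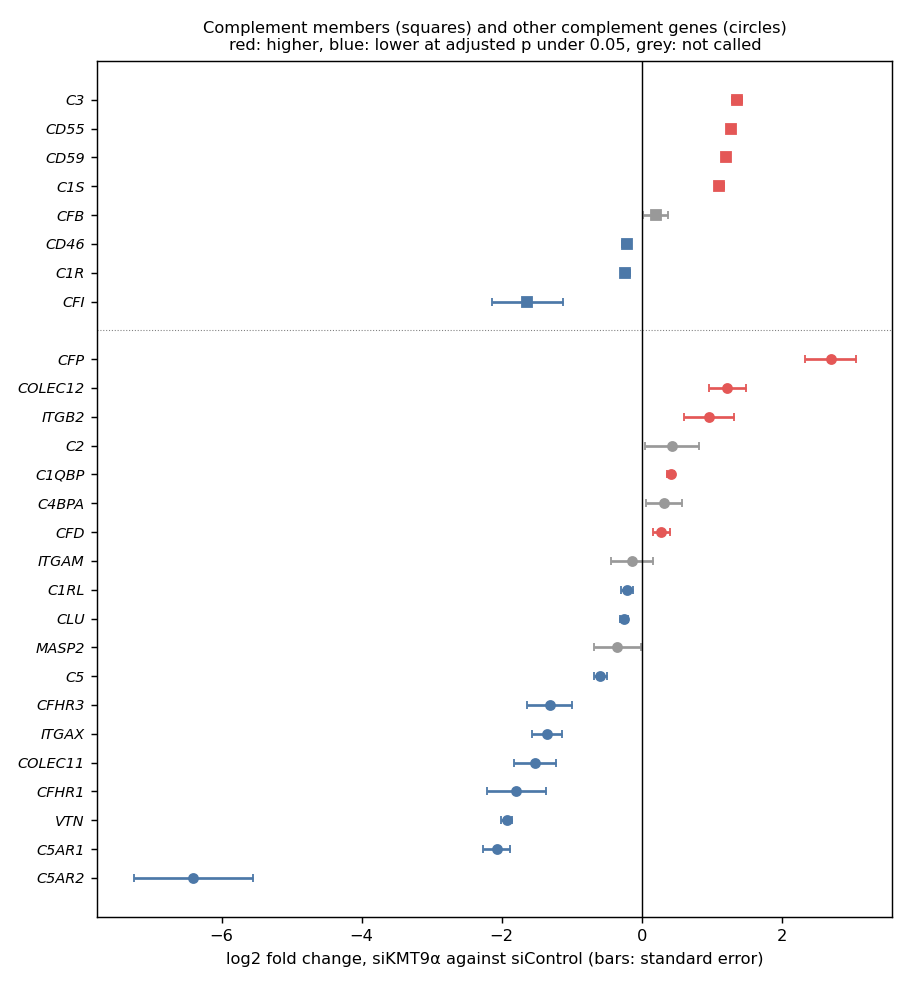
Log2 fold change of siKMT9α against siControl with its standard error for the 8 tested members (squares) and the tested other complement genes (circles, 1 not shown); red and blue mark genes higher or lower at an adjusted p under 0.05, grey the rest. C3, CD55, CD59 and C1S lie between 1.11 and 1.36; the value of C5AR2 rests on 0.5 counts in siKMT9α and has no firm size.

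CD55 and CD59 depend on a GPI anchor to reach the cell surface, whereas CD46 does not. Of 29 genes for making, attaching and remodelling this anchor, all were tested, 13 rose, 12 fell and 4 were not called, beside 37.1% of all genes tested that rose and 38.5% that fell, with a median log2 fold change of -0.02. The 3 genes that fell past the study's threshold, PIGA (-1.95), PIGC (-1.64) and PIGP (-1.60), encode subunits of the same enzyme, which adds the first sugar of the anchor. Other subunits of it, named after their values were seen, did not fall: PIGH (0.23, adjusted p = 0.00201) and PIGY (0.31, adjusted p = 3.47e-05) rose, and PIGQ (-0.21, adjusted p = 0.129) was not called. PIGA, its catalytic subunit, had 31.0, 33.0 and 31.5 CPM with siControl and 8.84, 8.07 and 7.85 CPM with siKMT9α. The siKMT9α samples were all far below the siControl samples.

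Of the others that fell, PIGL (-1.09) removes the acetyl group in the next step, PIGW (-0.50) acylates the inositol, and PIGV (-0.75) adds a mannose. PIGN (1.13) and PIGG (0.87), which add ethanolamine phosphate, rose past the study's threshold, and PIGM (0.74) and PIGZ (0.70), 2 mannosyltransferases, and PGAP3 (0.66) and PGAP1 (0.48), which remodel the anchor, rose at an adjusted p under 0.05. The call of PIGZ was lost with DESeq2 (adjusted p = 0.0625) and without siControl replicate 3 (adjusted p = 0.0524). Transcript levels of CD55 and CD59 thus moved opposite to those of PIGA, PIGC and PIGP. They moved in the same direction as those of PIGN and PIGG. Surface protein was not analysed here.

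Genes of the signalling known to drive complement genes, inhibitors of that signalling among them, were listed as 24 genes. Of these, 23 were tested, 14 rose, 7 fell and 2 were not called, beside 37.1% and 38.5% of all genes tested. The median log2 fold change of the 23 was 0.27. SOCS3, a feedback inhibitor of interleukin 6 signalling, had 29.6, 30.3 and 27.6 CPM with siControl and 256, 242 and 224 CPM with siKMT9α (log2 fold change 3.04, SE 0.06). NFKBIA, the inhibitor that NF-κB induces against itself, had 40.9, 40.5 and 42.1 CPM and then 96.9, 98.8 and 90.5 CPM (1.21, SE 0.05). In both genes every siKMT9α sample was far above the siControl samples. IL6 (2.25), the interleukin 1 receptor gene IL1R1 (2.00), the interferon γ receptor chain gene IFNGR2 (1.08) and the leukaemia inhibitory factor receptor gene LIFR (0.97) also rose past the study's threshold.

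In the lower direction, CEBPA (-0.90), a transcription factor of acute-phase genes, and IL6ST (-0.85), the shared signalling receptor of the interleukin 6 family, passed that threshold. IL1A (-2.36) and CEBPD (-0.59) fell at an adjusted p under 0.05, and so did TNFRSF1A (-0.12, adjusted p = 0.0359), a call lost under 8 of 17 alternatives and a value that was 0.00083 with offsets for GC content and length. IL1A had only 9, 10.5 and 9 counts in the siKMT9α samples. It passed the filter on low counts through siControl, which favoured a lower value in siKMT9α.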

How the data were processed

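Total RNA of 6 A549 samples was sequenced. Alignment to hg19 was done by the authors with STAR, and HOMER gave a value per RefSeq transcript. The deposited values are estimated counts without normalization, of which 36.4% are not whole. Their columns of linear fold change, p-value and adjusted p-value, made with edgeR, were not used. Of 38767 rows, 1182 without a symbol and counts were left out, and the transcript with the largest count represented each of 23180 symbols. Counts were rounded and analysed with edgeR 4.0.16 (R 4.3.3): TMM factors (0.96 to 1.04), filterByExpr, the quasi-likelihood F test (two-sided) and Benjamini-Hochberg adjustment over 13877 genes. The fit was tested on simulated data. Single values were compared by two-sided exact permutation tests. Positions of exons, strands and sequences came from a GRCh37 annotation and genome, the build of the deposited coordinates. The members and lists were chosen with earlier results of these data known. The genes named were N6AMT1, every member, up to 6 called genes of each list in each direction with a mean of at least 1 CPM, and the nearest tested neighbours. C5AR2, C4A, C4B, PIGH, PIGY, PIGQ, the complement genes without counts and the cell type markers were named beside this rule, and certain genes are not reported here. Alternatives were other tests, DESeq2 1.42.0, other scalings and filters, every transcript, the replicate block, GC and length offsets, and each sample left out.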

Additional observations from a re-analysis of the deposited data

How the results depend on the processing

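All alternatives gave 4 members higher and 4 past the study's threshold, and CD55, CD59, C3 and C1S kept their direction and call. All genes past that threshold numbered 3357 in the main fit and 2326 to 6070 under the alternatives. CD59 was lowest with offsets for GC content and length (log2 fold change 0.83). The replicate number as a block left 4 members higher and 3 lower; same-numbered samples did not deviate together (correlations of -0.16, 0.06 and -0.13), so the numbers were not taken as pairs. The count of members lower ranged from 1 to 3 with each sample left out, and was 1 without siControl replicate 1, when CD46 lost its call and CFI could not be tested. Leaving out each sample put CD46 at -0.29 to -0.11, and its call was also lost without siKMT9α replicate 1 or 2. The call of C1R was lost with the offsets (-0.13) and with the offsets and the block (-0.12). Other complement genes called higher numbered 3 with DESeq2, 2 with at least 10 counts in every sample, and 3 to 5 with each sample left out; those called lower numbered 6 with at least 10 counts in every sample, since fewer of them were tested. Signs turned for genes near 0. CD70 was at 0.0040 with DESeq2, 0.0050 with RLE factors, 0.0044 without a filter, 0.26 with the offsets, with or without the block, and -0.0609 to 0.0705 with each sample left out. GAR1 was at -0.0423 with library size alone and TNFRSF1A at 0.00083 with the offsets and 0.00021 with the offsets and the block. Beyond the fewer genes or samples of some alternatives, the cause was not tested. Library size alone moved the median of all genes from -0.01 to -0.12. The share of CD46 counts in the tail exon differed by -1.39 to -1.26 percentage points with each sample left out. With the other pairs of transcripts, which count largely the same reads, it differed by -1.33 and -1.32. These alternatives were chosen after seeing the data. Depth limits CFI, SERPING1 and CFB, whose counts allow only wide intervals.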

Other observations

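Of 17 acute-phase genes, which the liver and inflamed epithelium raise together with C3 and CFB, 8 were tested, 2 rose and 4 fell, beside 37.1% and 38.5% of all genes tested. LCN2, an iron-siderophore binding protein, fell from 40.7, 41.1 and 43.0 CPM with siControl to 10.5, 10.1 and 12.2 CPM with siKMT9α (log2 fold change -1.91, SE 0.08). The 3 fibrinogen chain genes, which lie in a cluster and whose proteins are assembled together, did not move together: FGB rose from 7.73, 5.03 and 6.73 to 24.4, 24.96 and 28.9 CPM (1.99, SE 0.11), whereas FGG (-1.69) and FGA (-0.62) fell. CP, or ceruloplasmin (-0.87), also fell, and PTX3, a pentraxin that binds C1q (1.11), rose. Of 5 contact system genes, whose proteases C1 inhibitor holds in check, only F12 was tested, and it fell (-0.48, adjusted p = 0.00453).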
